A study of Mus musculus with 2 samples.

Results

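The genes of oxidative phosphorylation were followed across the cell classes, stromal and other, found in sorted mouse kidney cells. Members were every entry of the deposited tables whose symbol starts with Nduf, Uqcr, Atp5, Cox5, Cox6, Cox7, Cox8, mt-Nd, mt-Co, mt-Atp or mt-Cytb, together with Cox4i1, Cyc1, Sdha, Sdhb, Sdhc and Sdhd, without symbols holding -ps. This gave 111 of 53698 entries, 98 nuclear and 13 mitochondrially encoded, under 110 distinct symbols, since Atp5o is listed under 2 identifiers. The samples were 2 droplet libraries (10x Chromium version 2, 3′ ends) of FVBN kidney cells positive for PDGFRa and PDGFRb. The library labelled sham came from a sham-operated kidney, and the library labelled UUO from one obstructed on 1 side at the ureter and taken at day 10 (unilateral ureteral obstruction, a surgical model of fibrosis). Neither the animals' age nor the number of animals pooled is given in the labels. With 1 library per group there is no test between them, and every interval below is a 95% interval for counting error only.

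Oxidative phosphorylation is carried out in the inner mitochondrial membrane. Complexes I and II pass electrons from NADH and succinate to ubiquinone, complex III passes them on to cytochrome c, complex IV reduces oxygen, and complex V, the ATP synthase, uses the proton gradient that I, III and IV build. The mitochondrial genome encodes a few core subunits of complexes I, III, IV and V, and the nucleus encodes the rest, including all of complex II. In the kidney, tubule cells are known for dense mitochondria.

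Depth differed between the libraries. Unique molecular identifiers (UMIs, counted molecules) had a median of 7740.5 over the 10812 sham-labelled barcodes and of 3088 over the 1291 labelled UUO, and 16 barcodes occurred in both. Barcodes with at least 500 UMIs and 300 genes (10769 and 1095) were sorted into classes by marker UMIs, which placed 92.5% and 79.6% of them. Classes are named by their markers alone (fibroblast-like and so on, written below without "like"). The fibroblast class, named from Dcn, Pdgfra, Lum and 5 other markers, held 9008 and 673 cells, and both receptors of the sort were detected in its sums, Pdgfra at 245 and 255 CPM (UMIs scaled to a total of 1000000 per sum) and Pdgfrb at 301 and 175. Some genes of injury ran against the labels in this class: Spp1 was at 12957 CPM in sham-labelled and 167 in UUO-labelled cells, and Timp1 at 710 and 66.8, while Postn (77.9 and 148) and C3 (36.0 and 607) ran with them. These genes were picked with their values known. Directions between libraries are therefore given as labelled, not as an effect of obstruction.

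The sequences below show promoter letters that some members share, and stretches of bases that 2 neighbouring genes have in common. Nuclear members are spread over the chromosomes, and short promoter stretches known as sites of NRF1, ETS factors and YY1 are found in some of their promoters. Of 97 nuclear symbols, 76 matched a promoter entry from RefSeq (GRCm38.p6, 250 bases before to 50 after the start). The NRF1 letters GCGCATGC, on either strand, occurred in 12 of the 76 (15.8%), against 3.05% of all genes in the table and 6.36% of other genes with at least 10 CPM in fibroblasts of both libraries. The YY1 letters AAGATGGC occurred in 11 (14.5%), against 3.19% and 6.01%, and the ETS letters CCGGAAG in 18 (23.7%), against 9.93% and 22.6%. At least 1 of these motifs lay in 44.7% of member promoters and in 31.7% of those of the other expressed genes. Below are the 150 bases upstream of 4 starts, in the direction of the gene, with motif letters in capitals. The first are Sdhb (complex II iron-sulfur subunit, chr4:140961121-140961270, plus strand) and Atp5j (complex V, chr16:84834977-84835126, minus strand). The others are the pair Cox6b1 (chr7:30626115-30626264, minus strand) and Cox6b2 (chr7:4753095-4753244, minus strand). This pair are 2 forms of a complex IV subunit whose levels differed in their order across classes.
Sdhb: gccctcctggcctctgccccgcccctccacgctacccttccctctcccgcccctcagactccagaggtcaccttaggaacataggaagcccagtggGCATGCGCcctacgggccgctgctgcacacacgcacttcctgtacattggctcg
Atp5j: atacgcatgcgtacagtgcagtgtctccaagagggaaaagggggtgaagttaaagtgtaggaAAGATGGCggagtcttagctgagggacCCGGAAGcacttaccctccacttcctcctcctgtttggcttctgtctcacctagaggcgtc
Cox6b1: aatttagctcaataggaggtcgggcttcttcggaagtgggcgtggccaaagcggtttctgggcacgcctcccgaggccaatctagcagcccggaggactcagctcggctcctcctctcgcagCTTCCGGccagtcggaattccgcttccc
Cox6b2: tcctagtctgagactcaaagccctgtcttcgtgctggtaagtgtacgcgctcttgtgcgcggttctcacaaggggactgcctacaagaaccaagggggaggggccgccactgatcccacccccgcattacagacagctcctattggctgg
Capitals mark the NRF1 letters as read on the other strand in Sdhb, YY1 then ETS letters in Atp5j, and ETS letters read on the other strand in Cox6b1. In Cox6b2 none of the 3 motifs lay in the window. A match is a description of the letters and not a proven site.

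In the mitochondrial genome, some neighbouring members share bases, and how reads over them were counted was not tested. The annotation gives such overlaps for mt-Atp8 with mt-Atp6, mt-Atp6 with mt-Co3, mt-Nd4l with mt-Nd4 and, on opposite strands, mt-Nd5 with mt-Nd6. The first and the third of these pairs bear on results below. The last 60 bases of mt-Atp8 (chromosome MT, 7910 to 7969, GRCm38, plus strand) and of mt-Nd4l (10114 to 10173) are shown with the shared bases in capitals.
mt-Atp8: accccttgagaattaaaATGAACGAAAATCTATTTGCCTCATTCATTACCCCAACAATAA
mt-Nd4l: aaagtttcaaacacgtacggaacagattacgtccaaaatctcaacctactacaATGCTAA
The mt-Atp8 gene (204 bases) shares 43 of them with mt-Atp6, and mt-Nd4l (297 bases) shares 7 with mt-Nd4.

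Tubule cells carried the most transcripts of both genomes, and the mitochondrially encoded ones set them apart most. Among sham-labelled cells, nuclear members made up 5.50% of all UMIs (5.41 to 5.59) in the 29 proximal tubule cells and 4.23% in the 220 cells of the loop, distal tubule and collecting duct (called distal nephron). The share was then 3.12% in 33 mural cells, 2.83% in 24 lymphoid, 2.51% in 371 endothelial, 2.43% in 9008 fibroblasts and 2.19% in 274 myeloid cells. Neighbours in this order had intervals that did not overlap, but the quartiles over cells overlapped between neighbours, running from 1.95 to 2.70% in fibroblasts and from 2.14 to 2.75% in endothelial cells. The place of lymphoid cells holds for the sums only. Their median over cells was 2.27%, below those of endothelial cells (2.41%) and fibroblasts (2.38%). Mitochondrially encoded members made up 17.00% (16.85 to 17.14) in proximal tubule and 6.64% in distal nephron cells. In the other classes they ranged from 1.71% in lymphoid to 3.04% in mural cells, with fibroblasts at 2.50%.

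The 4 classes of at least 20 cells labelled UUO kept this order. Its nuclear share was 5.99% in 95 proximal tubule cells, 3.48% in 25 mural, 2.53% in 65 endothelial and 2.18% in 673 fibroblasts. Its mitochondrially encoded share was 20.85%, 2.73%, 1.57% and 1.96%, which put endothelial cells below fibroblasts. Distal nephron (10 cells), myeloid (2) and lymphoid cells (2) were too few there to be compared.

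**Figure D1:**
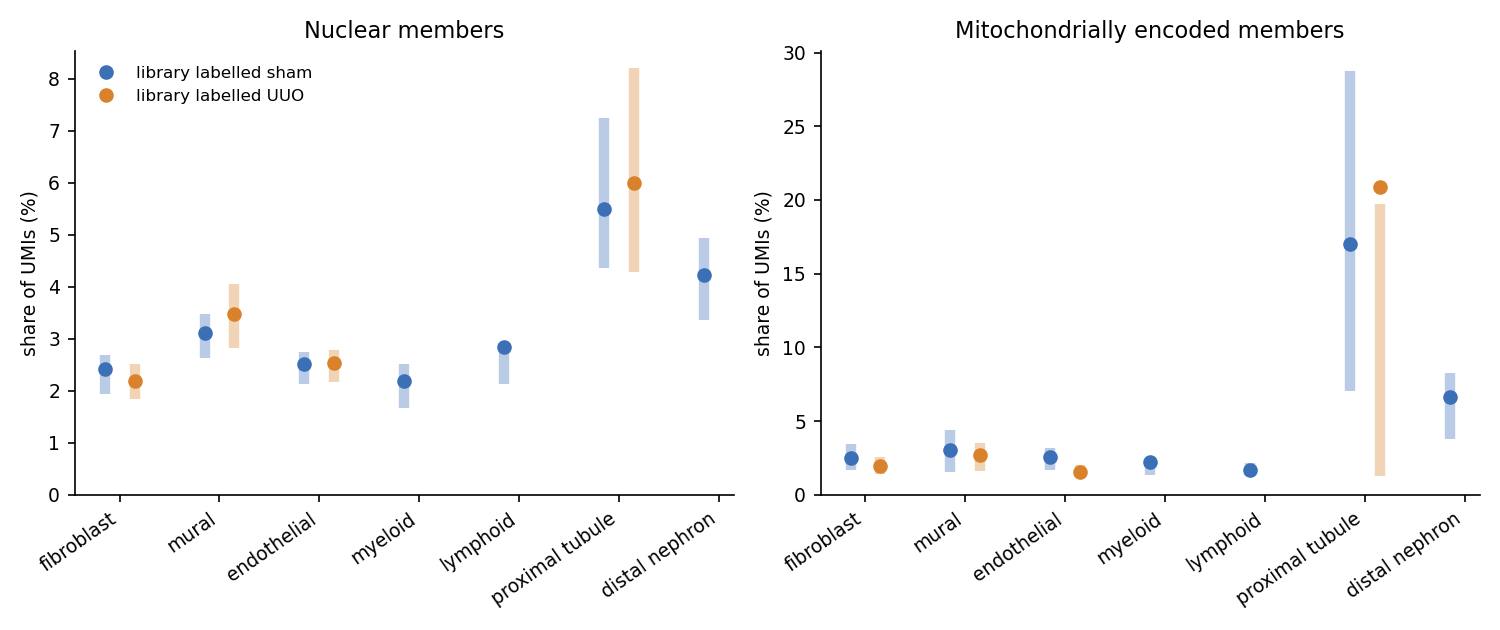
Share of UMIs (%) from nuclear (left) and mitochondrially encoded (right) members in each cell class with at least 20 cells; points are the summed share of a library and bars the quartiles over its cells. Proximal tubule cells are highest in both panels, and their mitochondrially encoded share spreads far more over cells than in any other class plotted.

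Nuclear and mitochondrially encoded sums did not scale together. The ratio of nuclear to mitochondrially encoded UMIs was 0.97 in fibroblasts, 1.03 in mural, 0.98 in endothelial and 0.98 in myeloid cells of the library labelled sham. It was 0.32 in proximal tubule and 0.64 in distal nephron cells, and 1.66 (1.57 to 1.75) in the 24 lymphoid cells. Among UUO-labelled cells it was 1.11 in fibroblasts, 1.27 in mural, 1.61 in endothelial and 0.29 in proximal tubule cells. Relative to fibroblasts of the same library, proximal tubule cells had a nuclear share 2.27 times as high (2.23 to 2.31) and a mitochondrially encoded share 6.79 times as high (6.73 to 6.86) in sham-labelled cells. In UUO-labelled sums both were higher still, at 2.75 (2.71 to 2.78) and 10.6 (10.6 to 10.7). That second value rests on deep cells with a high share: the median over the 95 cells was 6.25%, against 20.85% in the sum, and equal weight for each cell gave a ratio of 6.33. Distal nephron cells stood at 1.74 and 2.66 times the fibroblast shares. Leaving out cells with over 20% mitochondrially encoded UMIs lowered the second ratio to 4.63 in UUO-labelled cells, and 10 of the 29 and 24 of the 95 proximal tubule cells were such cells. Fibroblast markers summed to 754 and 1796 CPM in these 2 sets of tubule cells, against 8963 and 20633 in fibroblasts, and their part in the ratios was not tested.

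Within the proximal tubule class, single cells varied widely in the mitochondrially encoded share. The mitochondrially encoded share ran from 0.0439 to 58.6% in sham-labelled cells and from 0.08 to 72.8% in UUO-labelled cells, where the quartiles were 1.28 and 19.7%. Of the UUO-labelled cells 33 lay under 2%, 38 between 2 and 20%, and 24 over 20%. The 33 cells under 2% had a median nuclear share of 7.28%, and the 24 over 20% one of 4.07%. Once mitochondrially encoded UMIs were left out of the total, the 2 medians were 7.35% and 7.21%. Single cells still differed in the nuclear share of all UMIs, with quartiles of 4.28 and 8.21% over the 95 cells. Cells under 2% had a median of 1682 UMIs and those over 20% of 5317.5, so depth moved with the split. In 11 of the 95 cells the nuclear share was itself under 2%, a level also found in fibroblasts, whereas none of the 29 proximal tubule cells labelled sham was that low.

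**Figure D2:**
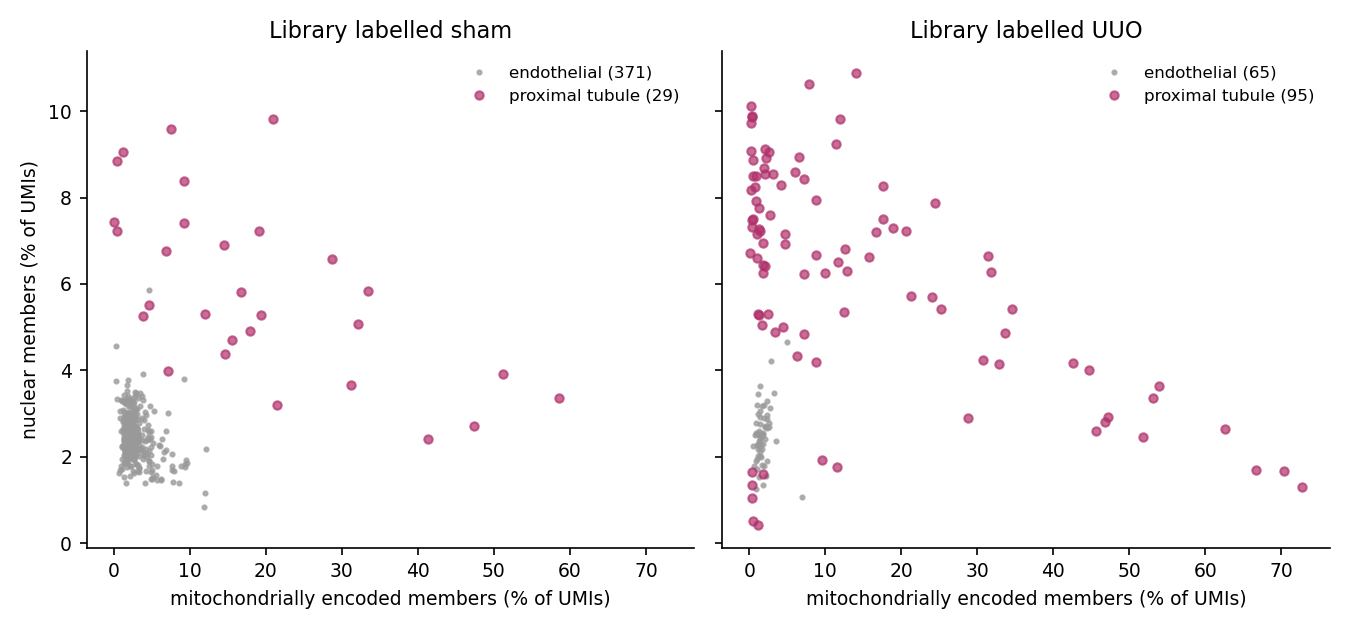
Nuclear against mitochondrially encoded share (% of UMIs) in single proximal tubule cells (large points) and endothelial cells (small points) of each library. Endothelial cells stay at or below 12.1% on the horizontal axis, while proximal tubule cells spread along the horizontal axis up to 58.6% and 72.8%.

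Gene by gene, most nuclear members were higher in proximal tubule cells. A gene was compared where its summed level reached 10 CPM on either side, and called where it differed at least 1.5-fold after 5 CPM were added to both. In sham-labelled sums 73 of 89 nuclear members were called higher than in fibroblasts, beside 23.0% of all genes, and 2 were called lower (39.5% of all genes). For the cells labelled UUO 78 of 89 were called higher (20% of all genes) and 3 lower (47.5%). The 2 libraries share no cells in these comparisons: 70 of 88 members were called higher in both, as were 15.5% of all genes. All mitochondrially encoded members but mt-Nd6 were called higher in both libraries. In distal nephron cells 58 of 90 nuclear members were called higher (20.9% of all genes) and 2 lower (20.7%).

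**Figure D3:**
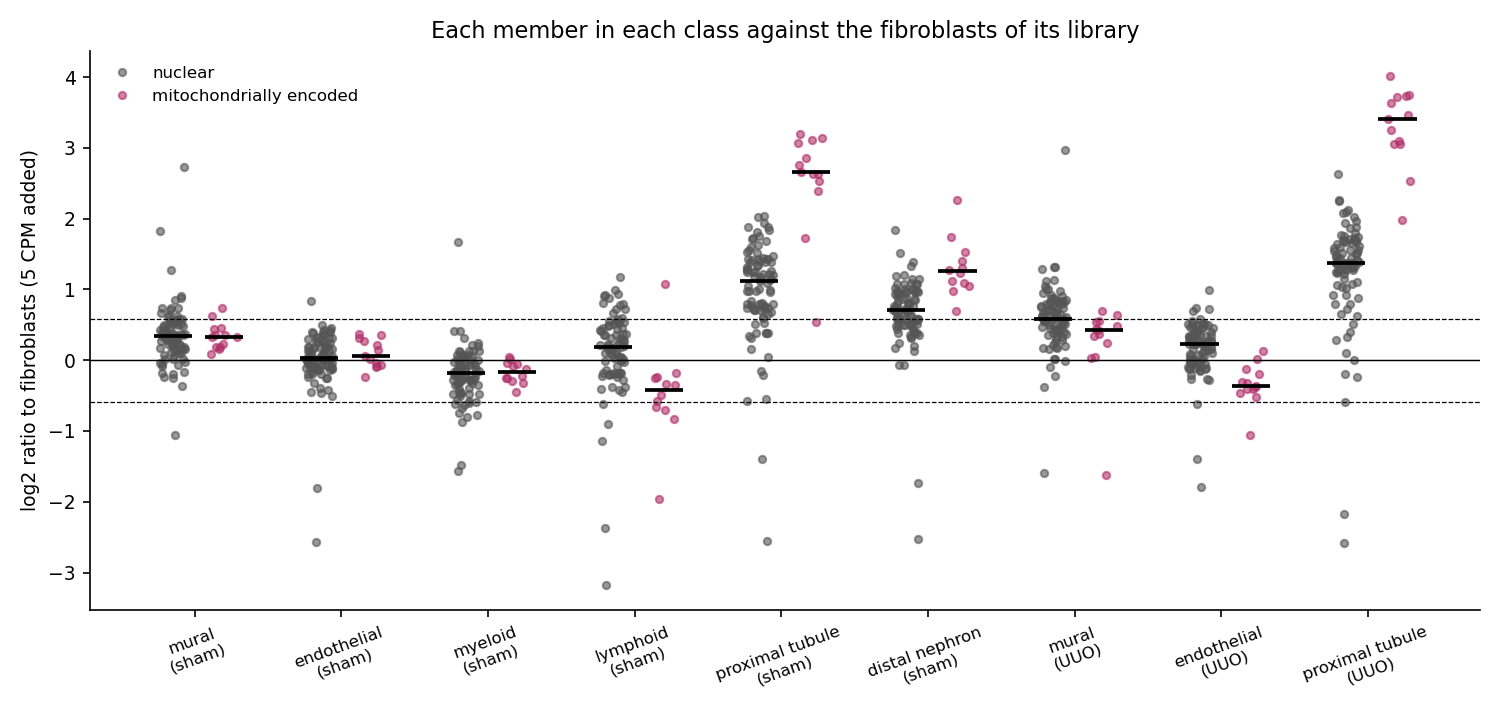
Log2 ratio of each member in a class to the fibroblasts of the same library, after adding 5 CPM; grey points are nuclear and pink points mitochondrially encoded members, black bars their medians, dashed lines the 1.5-fold limits. Medians are highest in proximal tubule, then distal nephron, and lie near 0 in endothelial and myeloid cells labelled sham.

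Complex I, the NADH dehydrogenase, is the largest complex. Its 37 measured nuclear subunit genes had a median log2 ratio of 0.79 (proximal tubule over fibroblast, library labelled sham) and 31 were called higher. Ndufb6, an accessory subunit, was at 571 CPM in proximal tubule cells and 169 in fibroblasts labelled sham, and at 591 and 178 in UUO-labelled cells. Ndufa11 and Ndufa7 were among the 18 members not called higher in both, at 428 and 326 CPM and at 349 and 313 CPM in sham-labelled cells. Of the complex I assembly factors, named Ndufaf, 2 of 7 (28.6%) were called higher in sham-labelled cells, near the 23.0% of all genes, with a median of 0.39, and 4 of 8 in UUO-labelled cells. Ndufaf6 was at 35.7 CPM in proximal tubule cells and 5.0 in fibroblasts labelled sham, and at 38.1 and 10.1 in those labelled UUO. Labelled sham, Ndufaf3 was at 39.7 CPM in proximal tubule cells and 38.3 in fibroblasts, and Ndufaf7 at 11.9 and 20.3. Among the 7 subunits of complex I encoded in mitochondria, mt-Nd1 was at 3289 CPM in fibroblasts and 20402 in proximal tubule cells labelled sham, and at 2441 and 32472 in those labelled UUO. The exception, mt-Nd6, was at 6.67 and 11.9 CPM labelled sham and at 10.3 and 55.4 labelled UUO, and is read from the other strand of the mitochondrial genome.

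Complexes II and III were called higher in full in both libraries. Complex II, succinate dehydrogenase, had 4 of 4 genes called higher, with a median log2 ratio of 1.38 in sham-labelled cells and 1.76 in UUO-labelled cells. Its flavoprotein gene Sdha was at 274 CPM in proximal tubule cells and 109 in fibroblasts labelled sham, and at 329 and 124 in UUO-labelled cells. Sdhb was at 428 and 156, then 594 and 171. The membrane anchors Sdhc and Sdhd were at 258 and 99.4 and at 266 and 87.1 CPM in sham-labelled cells, and at 289 and 71.8 and at 251 and 70.6 in UUO-labelled cells. In all 4 genes the tubule sum was therefore more than 2-fold above the fibroblast sum of its library. Complex III, which hands electrons to cytochrome c, had 9 of 9 nuclear genes called higher in each library. Uqcr10, a small subunit, was 4.40-fold higher (4.04 to 4.79) in UUO-labelled cells, at 1502 and 341 CPM. Cyc1, the gene of cytochrome c1, was at 353 and 137 CPM in sham-labelled cells and 464 and 139 in UUO-labelled cells. Its mitochondrially encoded partner mt-Cytb was at 20882 and 3997 CPM, and 23054 and 2759.

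Complex IV, cytochrome c oxidase, held the 3 highest ratios among nuclear members of at least 50 CPM in sham-labelled cells, and the 2 members called lower in both libraries. Of 15 measured nuclear genes 12 were called higher and 2 lower in each library. Ndufa4, first assigned to complex I and now counted with complex IV, was 3.84-fold higher (3.54 to 4.16) in proximal tubule cells labelled sham, at 2431 and 632 CPM. Cox5a was 3.74-fold (3.30 to 4.23) and 4.86-fold higher (4.33 to 5.45) in the 2 libraries, and Cox7a2 was 3.72-fold higher in sham-labelled cells. Cox4i1 was at 2451 and 1076 CPM, then 2113 and 816. Cox8a was at 1753 and 722, then 1780 and 648. Cox7a2l, a factor of supercomplexes between III and IV, did not differ beyond counting error: its ratio was 0.90 (0.72 to 1.10) in sham-labelled cells, at 353 and 394 CPM. Among the catalytic subunits, mt-Co1 was at 28118 and 3257 CPM in proximal tubule cells and fibroblasts labelled sham, mt-Co2 at 15799 and 1728 and mt-Co3 at 26037 and 4520. Among UUO-labelled cells the 3 stood at 32622 and 2618, 22704 and 1683, and 25402 and 3062. Distal nephron cells lay between, with mt-Co1 at 15670 CPM.

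Complex V had 15 of 17 nuclear genes called higher in sham-labelled cells and 16 of 17 in UUO-labelled cells. Atp5b, the catalytic beta subunit, was at 1622 CPM in proximal tubule cells and 559 in fibroblasts, then 2004 and 599. The 3 genes of the identical c subunit, Atp5g1, Atp5g2 and Atp5g3, were at 1028 and 358, 502 and 187, and 524 and 152 CPM in sham-labelled cells. In UUO-labelled sums they were at 1010 and 356, 336 and 127, and 731 and 148. Atp5g3 had the highest ratio there, 4.94 (4.355 to 5.595). In mt-Atp6, a proton channel subunit, the sums were 39586 and 5445 CPM, then 44165 and 4609.

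Lists of other mitochondrial genes are read against the shares of all genes called higher, 23.0% labelled sham and 20% labelled UUO. Of 17 TCA cycle genes 14 were called higher in proximal tubule cells labelled sham and 17 in UUO-labelled cells, with Suclg2 at 250 and 32.9 CPM in the former. Of 7 electron and nucleotide carrier genes 4 were called higher in each library. Cycs, the gene of cytochrome c, was 5.38-fold (4.78 to 6.03) and 6.03-fold higher (5.51 to 6.59), while the ADP/ATP carrier Slc25a4 was 0.82 and 0.88 times the fibroblast level. Fatty acid oxidation had 8 of 15 and 12 of 15 called higher, and regulators of mitochondrial biogenesis 7 of 11 in each library. Mitochondrial ribosomal proteins had 27 of 77 (35.1%) and 22 of 77 (28.6%) called higher. Complex assembly factors had 6 of 26 (23.1%), equal to the share of all genes, and 10 of 25. Of cytosolic ribosomal proteins 22 of 87 (25.3%) were called lower labelled sham, under the 39.5% of all genes, and 70 of 86 (81.4%) labelled UUO, above the 47.5%. Their medians were -0.43 and -0.87, beside -0.29 and -0.52 over all genes.

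Mural cells, the pericytes, smooth muscle and renin cells around vessels, were the next highest class. Of 88 nuclear members 14 were called higher than in fibroblasts in sham-labelled cells (22.5% of all genes) and 1 lower (21.0%). For the cells labelled UUO 44 of 88 were called higher (29.9% of all genes) and 1 lower (24.0%). Called in both were 12 of 86, or 14.0%, beside 9.73% of all genes. They included Atp5b (1012 and 559 CPM, then 1313 and 599) and Uqcrc2, a core protein of complex III (199.1 and 104, then 253 and 98.5). No mitochondrially encoded member was called in both. These sums rest on 33 and 25 cells, of which 16 and 10 lay near the limit of the class rule (under 9 marker UMIs, exactly 3 markers, or under 3 times another class).

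Endothelial cells labelled sham were close to fibroblasts, at 1.03 times their nuclear and 1.02 times their mitochondrially encoded share. Labelled UUO they stood at 1.16 times (1.13 to 1.19) and 0.80 times (0.78 to 0.83). Of 87 nuclear members 1 was called higher in sham-labelled cells (20.9% of all genes), namely Ndufa8 at 289 and 159 CPM, and 2 lower (16.2%). Among UUO-labelled cells 5 were called higher (26.0%) and 3 lower (20.4%), with Atp5g2 furthest up at 258 and 127. Myeloid cells had 1 of 87 called higher (14.6% of all genes) and 11 lower (32.9%), at a median log2 ratio of -0.17 beside -0.30 over all genes. Lymphoid cells had 13 of 86 called higher (28.2%) and 5 lower (38.7%). They also had the highest cytosolic ribosomal sums, with 72 of 87 genes called higher. In 24 cells the counts are few: Cox5a was 1.93-fold higher, with an interval of 1.48 to 2.47.

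Forms of single subunits departed from the common pattern. Cox6b1 followed it, at 1329 CPM in proximal tubule, 1146 in distal nephron, 813 in mural, 667 in endothelial, 636 in myeloid, 616 in lymphoid cells and 607 in fibroblasts labelled sham. Its second form Cox6b2, known from testis, did not follow it. Cox6b2 was highest in fibroblasts, at 155 CPM, where Cox6b1 was lowest, but the other classes were not in reverse order. It was at 71.9 in mural, 55.5 in proximal tubule, 48.8 in myeloid, 42.9 in distal nephron, 26.0 in lymphoid and 21.9 in endothelial cells. In UUO-labelled sums it was at 134 in fibroblasts, 103 in mural, 35.2 in endothelial and 26.0 in proximal tubule cells. Cox6b2 was 1 of 91 nuclear members whose highest class was the fibroblasts in sham-labelled cells. The proximal tubule was highest for 71 of them and for all 13 mitochondrially encoded members.

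Ndufa4l2, a hypoxia-induced relative of Ndufa4, was concentrated in mural cells. Its sums there were 813 and 1121 CPM, against 118 and 139 in fibroblasts, a ratio of 6.89 (5.81 to 8.11) and 8.06 (6.74 to 9.60). It was at 30.0 and 49.9 in endothelial and 15.9 and 19.1 in proximal tubule cells, and at 39.1, 16.3 and 8.67 in myeloid, distal nephron and lymphoid cells labelled sham. Ndufa4 did not share this pattern: mural cells labelled sham were at 531 CPM and fibroblasts at 632, a ratio of 0.84 (0.68 to 1.03). Cox7a1, the heart and muscle form beside Cox7a2, was low throughout, at 16.6 CPM in mural, 19.8 in proximal tubule and 16.7 in distal nephron cells labelled sham and 1.07 in fibroblasts. Counts were few, with 3 UMIs behind the mural value. Cox7a1 reached 43.3 CPM in proximal tubule cells labelled UUO. Cox6a2, the muscle form beside Cox6a1, was at 11.1 CPM in myeloid cells and at most 3.46 in any other class of either library, while Cox6a1 ran from 428 in myeloid to 1214 CPM in proximal tubule cells labelled sham. Cox8b, the muscle form beside Cox8a, stayed at or under 5.87 CPM in every class.

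**Figure D4:**
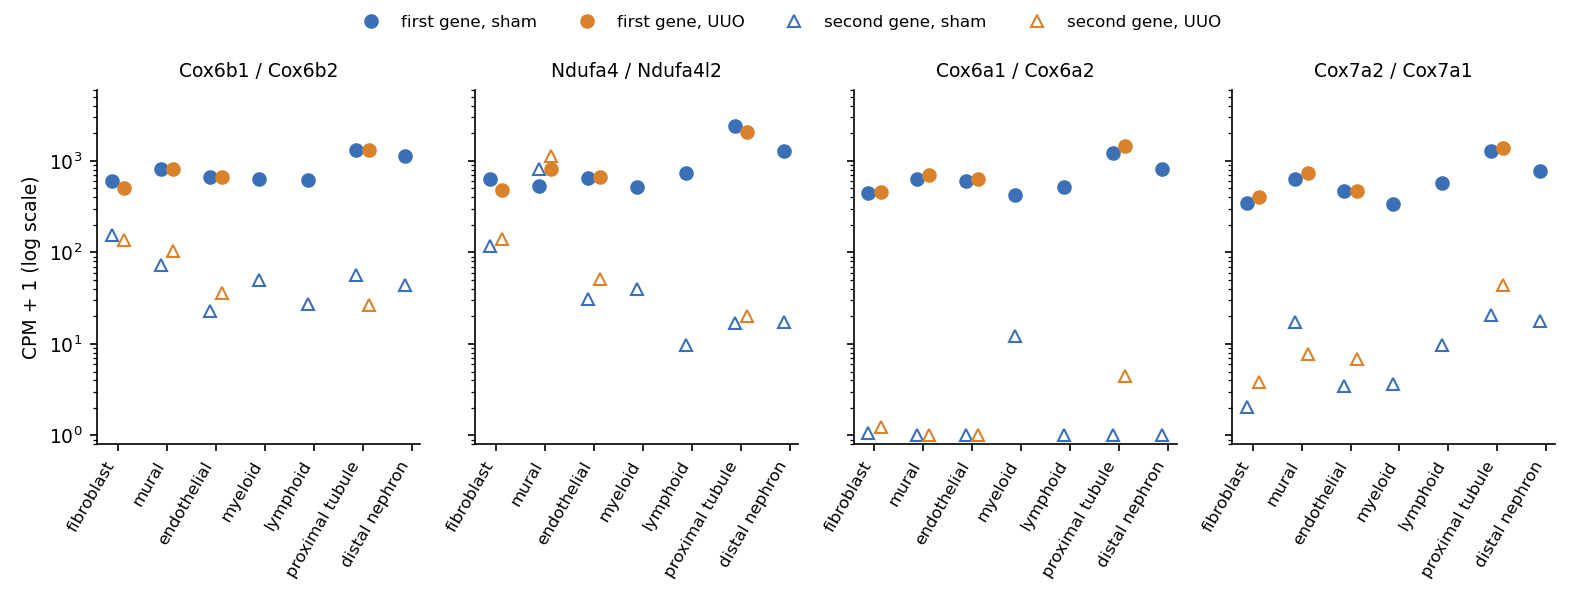
Level of 4 pairs of related subunit genes in each class (CPM + 1, log scale; filled circles the first gene of each title, open triangles the second; colour gives the library). Cox6b2 is highest in fibroblasts and Ndufa4l2 in mural cells, while Cox6b1 and Ndufa4 are highest in proximal tubule cells.

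Between the libraries, fibroblasts labelled UUO had a slightly lower nuclear share. The ratio (UUO over sham) was 0.898 (0.892 to 0.904) for nuclear and 0.783 (0.777 to 0.788) for mitochondrially encoded members. Proximal tubule RNA moved with this comparison: 10 tubule markers summed to 14.6 CPM in fibroblasts labelled sham and 483 in those labelled UUO, or 0.189% and 2.88% of the level in tubule cells, with all 10 detected in both. At least 1 such UMI was found in 9.77% and 85.3% of fibroblasts. In the 8128 and 99 cells without one, at median depths of 8253.5 and 1841 UMIs, the nuclear ratio was 0.829 and the mitochondrially encoded ratio 0.999, but these cells differ in depth, and both shares moved with depth as given below. The lenient class rule gave 0.905 and 1.00. The mitochondrially encoded ratio thus had no direction in those settings, and the part of tubule RNA and of depth in it cannot be told apart here. The nuclear ratio was between 0.829 and 0.957 in the alternatives run. Its direction turned in the shallowest of 4 equal groups of cells by UMIs in each library. There the nuclear share was 1.89% labelled UUO and 1.62% labelled sham. Those 2 groups were not of like depth, at 562 to 2871 UMIs labelled UUO and 501 to 4581 labelled sham.

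Few single nuclear members differed between fibroblasts of the 2 libraries. Of 87 measured 3 were called higher in UUO-labelled cells (19.6% of all genes) and 2 lower (11.9%). The median log2 ratio was -0.11, beside -0.01 over all genes, and 27 of 87 lay above 0. Higher were Ndufa12 (107 CPM labelled sham, 201 labelled UUO), Ndufaf7 (20.3 and 42.5) and Ndufaf6 (5.0 and 10.1), and lower were Cox5a (279 and 175) and Ndufb4c (35.2 and 9.38), annotated as a processed pseudogene. The call of Ndufaf6 was lost in 8 alternatives and that of Cox5a in 2 (cells of 2000 to 10000 UMIs, and cells with a Y-linked and no Xist UMI). Of the nonzero values of Ndufa12, 47.1% labelled sham and 22.2% labelled UUO were not whole numbers. Among genes of at least 50 CPM, Cox5a was furthest down, with a ratio of 0.63 (0.58 to 0.68). By complex, median log2 ratios were -0.07 for I, -0.08 for II, -0.08 for III, -0.23 for IV and -0.22 for V. The lowest and highest of complex III were Uqcrb (508 and 361 CPM) and Uqcrfs1 (124 and 129), and of complex V Atp5g2 (187 and 127) and Atp5k (192 and 242). In complex II, Sdhc was at 99.4 and 71.8, a ratio of 0.72 (0.64 to 0.81), and Sdha went the other way at 109 and 124. Without cells holding a tubule marker UMI, 5 members were called higher and 12 lower, among 27.7% and 22.1% of all genes, with Cox5a still lowest at 276 and 104 CPM.

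The 13 mitochondrially encoded members did not move as 1 block between these fibroblasts. The ratio was 0.68 for mt-Co3 (4520 and 3062 CPM), 0.69 for mt-Cytb, 0.72 for mt-Nd4, 0.74 for mt-Nd1, 0.80 for mt-Co1 and 0.85 for mt-Atp6 and mt-Nd3. For mt-Co2 it was 0.97 (0.95 to 1.00), for mt-Nd2 1.01 (0.97 to 1.05) and for mt-Nd5 1.25. For mt-Nd6 it was 1.55 (1.11 to 2.11), from 6.67 and 10.3 CPM. Called higher were mt-Nd4l, at 24.2 and 99.2 CPM (4.11-fold, 3.69 to 4.57), and mt-Atp8, at 14.5 and 60.04 (4.13-fold, 3.59 to 4.74). Both overlap a neighbour that was lower in the same sums, mt-Nd4 (1869 and 1355 CPM) and mt-Atp6 (5445 and 4609), as the sequences above show. Values that are not whole numbers can arise where counting splits a molecule between genes, and they made up 71.5% of the nonzero values of mt-Nd4l labelled sham and 32.0% of those labelled UUO. For mt-Atp6 they made up 69.6% and 60.2%, and for mt-Atp8 and mt-Nd4 at most 2.44%. Which entries shared the split molecules, and their part in both differences, was not tested.

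**Figure D5:**
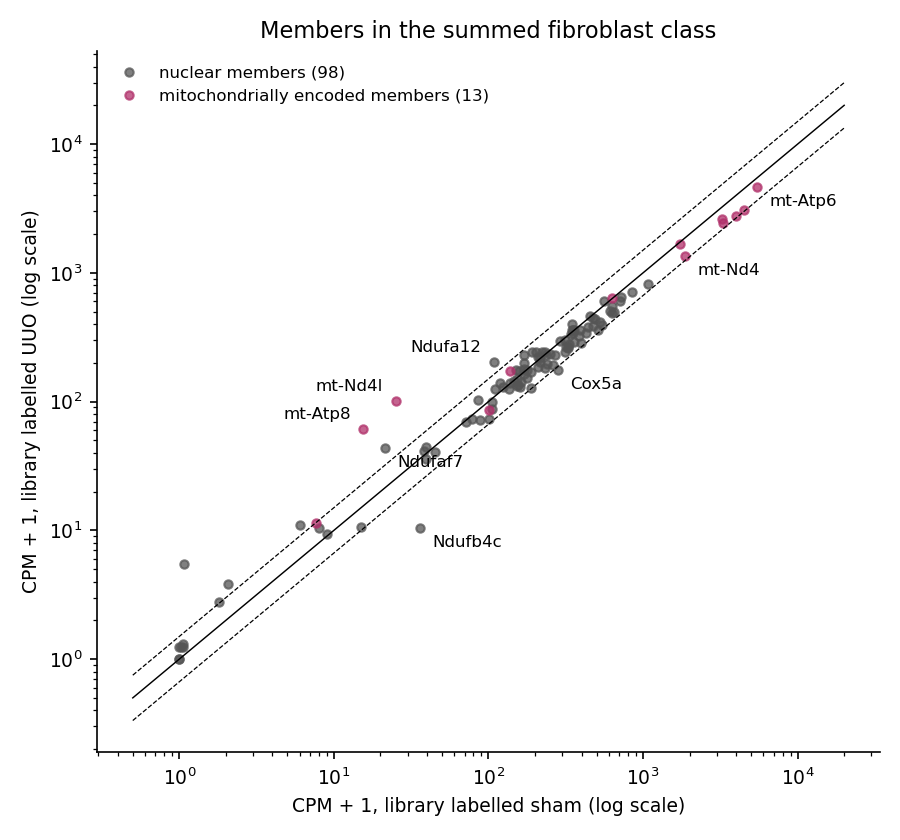
Summed level of every member in fibroblasts of the 2 libraries (CPM + 1, both axes on a log scale), with the line of equality and dashed lines at 1.5-fold. Nearly all members lie between the dashed lines, and mt-Nd4l and mt-Atp8 lie above while mt-Nd4 and mt-Atp6 lie below the line of equality.

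Few members shifted the same way in every class. In all 4 classes with at least 20 cells in both, 3 of 98 members measured in each were called higher in UUO-labelled cells, namely Ndufa12, Ndufaf7 and mt-Nd4l, and 1 lower, Ndufb4c. Of all genes 5.56% were higher and 2.65% lower in all 4. Class by class, 10 of 89 nuclear members were called higher (33.8% of all genes) and 3 lower (24.8%) in mural cells. In endothelial cells the counts were 8 of 88 (23.0%) and 2 (17.9%), and in proximal tubule cells 13 of 90 (22.0%) and 5 (28.2%). The nuclear ratio was 1.12 (1.07 to 1.16) in mural, 1.01 (0.98 to 1.03) in endothelial and 1.09 (1.07 to 1.11) in proximal tubule cells. Tubule markers summed to 800 CPM in mural and 707 in endothelial cells labelled UUO, and to 22.1 and 36.3 in those labelled sham, where 7 and 3 of the 10 were at 0. Their part was not tested.

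Depth went with the mitochondrially encoded share within fibroblasts. When fibroblasts labelled sham were split into 4 equal groups by UMIs, the shallowest (501 to 4581 UMIs) had a mitochondrially encoded share of 6.59% and a nuclear share of 1.62%. The other groups had 2.45%, 2.04% and 2.09%, with nuclear shares of 2.41%, 2.48% and 2.54%. For the cells labelled UUO the mitochondrially encoded share was 3.0% in the shallowest group (562 to 2871 UMIs) and 2.37%, 1.84% and 1.74% in the others. The nuclear shares were 1.89%, 2.13%, 2.28% and 2.18%. As a description over 9008 cells of 1 library (labelled sham), the per-cell shares had a Pearson correlation of -0.62 and a Spearman correlation of -0.35. Over the 673 cells labelled UUO the 2 values were -0.27 and -0.09. Within the groups by UMIs, from shallow to deep, the Spearman correlation was -0.57, -0.007, 0.23 and 0.20 labelled sham. Labelled UUO it was -0.28, -0.13, 0.15 and 0.12. Both shares come from 1 total. With mitochondrially encoded UMIs left out of the total for the nuclear share, the Spearman correlation over the 9008 cells was -0.32.

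Dividing fibroblasts differed little. For the cells labelled sham 106 fibroblasts held at least 3 cycling markers. Their nuclear share was 2.61%, 1.08 times (1.06 to 1.09) that of the other 8902, and their mitochondrially encoded share 2.20%, 0.876 times (0.867 to 0.886). Of 87 nuclear members 0 were called higher or lower, beside 7.75% and 6.16% of all genes. Their median depth was 13362.5 UMIs, against 8376. The library labelled UUO held 2 such cells.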

How the data were processed

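The authors deposited expected counts of unique molecular identifiers per gene and barcode, made with Salmon 0.13.1 (alevin) on mm10 per the submitters' processing notes; 92.3% and 91.2% of nonzero values were whole (within 1e-06). Members, gene lists and rules were chosen with earlier results of these data known. Cells with at least 500 UMIs and 300 genes took a class when at least 3 of its markers and 6 marker UMIs were found, at 2 times those of any other class. Of the cells kept, 172 and 34 were mixed, 633 and 186 unplaced, and 5 and 3 globin-rich, and all were left out. No doublet caller was run; barcodes with markers of 2 classes were left out as mixed, and doublets within a class remained. Counts were summed per class and library, rounded to whole numbers per gene and scaled to CPM. A UMI of a 3′ library counts a molecule whatever its transcript's length. Intervals are exact and cover counting error only (binomial for shares, conditional binomial for ratios). No test was made, since each group is 1 library. Named genes were all mitochondrially encoded members, the 2 highest and 2 lowest of each complex between libraries and the 3 highest and lowest of each class (at least 50 CPM), the extremes of each list, and fixed subunit forms; other genes were chosen after their values were seen. Of the members, 13 lay under 10 CPM in fibroblasts of each library, and 4 nuclear members are annotated as processed pseudogenes. The interval and call rule were run on counts simulated at the summed fibroblast totals of the 2 libraries. That simulation held counting error only, without spread between cells, and did not cover the smaller classes. Python 3.11.15, numpy 2.4.6, scipy 1.17.1 and pandas 2.3.3 were used. Alternatives changed the class rule, depth and mitochondrial limits, weights, filters and added CPM. One alternative, without cells of other classes holding a proximal tubule marker UMI, was chosen after seeing the data. The values of 1 member are not reported here.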

Additional observations from a re-analysis of the deposited data

Results flagged for a closer look

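Between the libraries, the nuclear share went in opposite directions in different classes. The ratio (UUO over sham as labelled) was 0.898 in fibroblasts, 1.12 in mural and 1.09 in proximal tubule cells. The mitochondrially encoded share was lower in the library labelled UUO in fibroblasts (0.783), mural (0.899) and endothelial cells (0.617), and higher in proximal tubule cells (1.23). The proximal tubule value holds for the sums only. The median over proximal tubule cells ran the other way, at 15.5% labelled sham and 6.25% labelled UUO. Endothelial cells stood at 1.02 times the mitochondrially encoded share of fibroblasts in the library labelled sham and at 0.804 times in the library labelled UUO. With equal weight for each cell the ratio labelled sham was 0.824, on the same side as the other. Each of these values rests on 1 library per group, and the differences between classes or libraries were not tested.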

How the results depend on the processing

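No paired analysis was possible because each group is 1 library and no result comes from a test. Of the shares and counts recomputed under the alternatives, 81 stayed within the counting interval of the main value (or within 1.5 times a count) and 79 left it. The endothelial mitochondrially encoded ratio labelled sham crossed from above 1 to below it under the strict rule and with equal weight, and that of fibroblasts between libraries crossed to 1.00 under the lenient rule. Single members were recomputed only between the fibroblasts of the 2 libraries, and only for named members. There no called member changed direction, and 10 values fell under 1.5-fold, 8 of Ndufaf6 and 2 of Cox5a. Member calls of other classes against fibroblasts were not recomputed under the alternatives. Causes were not tested.

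Fibroblasts, UUO over sham as labelled: the nuclear ratio was 0.886 with the strict class rule, 0.905 with the lenient one, 0.829 without tubule marker cells, 0.957 in cells of 2000 to 10000 UMIs, 0.888 in Xist cells, 0.910 in cells with a Y-linked UMI, 0.906 without the deepest 5% and 0.945 with equal cell weight. The mitochondrially encoded ratio was 0.776, 1.00, 0.999, 0.714, 0.811 and 0.768 in the first 6 of these, 0.658 with equal weight, 0.790 with at most 20% mitochondrial UMIs and 0.792 with at least 2000 UMIs. Members called higher numbered 5 without tubule marker cells and 1 with a 50 CPM filter. Members called lower numbered 12 without tubule marker cells and 1 in each of 3 settings (2000 to 10000 UMIs, Y-linked cells, the 50 CPM filter).

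Nuclear ratios to fibroblasts labelled sham: strict rule, endothelial 1.02, myeloid 0.877, proximal tubule 2.34, distal nephron 1.81. Lenient rule: mural 1.20, myeloid 0.921, proximal tubule 2.21, distal nephron 1.72. Equal weight: mural 1.35, endothelial 1.09, myeloid 0.961, lymphoid 1.09, proximal tubule 2.61, distal nephron 1.90. Scaled by UMIs not mitochondrially encoded, the tubule ratios were 2.67 and 1.82. Without tubule marker cells, endothelial cells stood at 1.02. Labelled UUO: endothelial 1.19 and proximal tubule 2.86 (strict), mural 1.53 and proximal tubule 2.61 (lenient). The proximal tubule ratio was 2.99 without tubule marker cells of other classes, 2.88 with equal weight, 3.26 with at most 20% mitochondrial UMIs and 3.42 scaled by the remaining UMIs.

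Mitochondrially encoded ratios labelled sham: strict rule, mural 1.27, endothelial 0.987, proximal tubule 9.80, distal nephron 2.70. Lenient rule: myeloid 0.914, lymphoid 0.760, distal nephron 2.57. Equal weight: mural 1.06, endothelial 0.824, myeloid 0.737, lymphoid 0.582, proximal tubule 5.54, distal nephron 2.26. Without tubule marker cells: mural 1.27, myeloid 0.846. With at most 20%, distal nephron 2.40. With at least 2000 UMIs: endothelial 1.01, proximal tubule 7.04, distal nephron 2.72. Labelled UUO: mural 1.46 and proximal tubule 10.4 (strict), mural 1.05, endothelial 0.638 and proximal tubule 8.39 (lenient). With equal weight they were mural 1.27, endothelial 0.778 and proximal tubule 6.33. With at least 2000 UMIs they were mural 1.35 and proximal tubule 11.3. The proximal tubule ratio was 8.31 without tubule marker cells of other classes and 4.63 with at most 20%. Where a class kept under 20 cells, no value was given (such as lymphoid cells under the strict rule). Classes of 24 to 33 cells and low members such as mt-Nd6 have wide counting intervals.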

Other observations

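Of the barcodes outside the classes, some sets had high mitochondrially encoded sums carried by a few barcodes. Unplaced barcodes summed to 7.50% labelled sham and 5.84% labelled UUO, with medians over barcodes of 2.89% and 2.18%. The 34 mixed barcodes labelled UUO summed to 17.97%, with a median of 2.29%, and the 172 labelled sham to 3.79%, with a median of 2.82%. Barcodes under the depth limits, 43 labelled sham and 196 labelled UUO, summed to 28.7% and 32.8%, with medians of 0.832% and 4.45%. Globin-rich barcodes, 5 and 3, were at 2.73% and 0.167%. The 10 distal nephron cells labelled UUO had 23.3% mitochondrially encoded and 8.76% nuclear UMIs.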
